A study of Mus musculus with 62 samples.

Results

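Brown adipose tissue of 7 mice that had carried cachectic melanoma cells (CAC) for 8 weeks was compared with that of 5 mock-injected mice (Con) of the same week, which makes 12 of the 62 libraries of the series. The members were taken from the sample titles, every title ending in CAC8wk without a leading N against every title ending in Con8wk, and no library was left out. Both groups were female mice, injected at the age of 2 months. The CAC mice received melanoma cells described as cachectic, the Con mice a mock injection, and another group of 5 mice (NCAC), described as carrying non-cachectic melanoma cells, is used only where a difference from it was tested. The series text names NCI Ath/nude mice, a strain without a thymus, while the sample labels give C57BL6/J as the strain, and the labels name neither the melanoma lines nor the size of the tumours. The labels number the libraries as biological replicates and do not say whether the mice were housed or dissected together, so a p-value here measures spread between libraries. For the gene tests this spread was estimated over all 62 libraries in 12 groups, so it is not that of these 12 libraries alone.

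Brown adipose tissue burns fatty acids and glucose in mitochondria that are uncoupled by UCP1, and it is driven by noradrenaline through beta-adrenergic receptors and cyclic AMP. Cachexia, a wasting of body tissue seen with some tumours, comes with an acute phase response, in which cytokines of the IL-6 family act through the shared receptor subunit gp130 and the transcription factor STAT3, mainly in the liver, to raise secreted proteins such as serum amyloid A, haptoglobin and the alpha-1-antichymotrypsins. Fat tissue is itself a source of several of these proteins, of complement factors and of hormones.

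RNA abundance was deposited as TPM, an abundance scaled for transcript length and library total. Differences are given as the log2 change between group means of log2(TPM + 1), a scale that understates the change of genes with low values, with the standard error (SE) and the Benjamini-Hochberg adjusted p of limma over 12581 tested genes, and a gene was called at an adjusted p under 0.05. Transcripts of the mitochondrial genome filled 44.3 to 55.6% of the total in CAC and 59.9 to 65.5% in Con, without overlap (mean difference -11.98 percentage points, 2-sided exact permutation test, p = 0.00253). Because TPM sums to a fixed total, this leaves more of it to every other gene: the median gene stood 0.28 higher in CAC on the log2 scale. For this reason the counts of called genes, over all genes and per list, are repeated on values rescaled by the median of ratios to a common reference, where that median is -0.01. Counts of genes without overlap between the groups, and list counts against NCAC, are on the TPM scale alone. As TPM is a share of the library, less RNA of a kind per cell and fewer cells of a type cannot be told apart. Every Con and CAC library held the defining transcripts of brown fat: Ucp1 ran from 1639.9 to 4659 TPM in CAC and from 4424 to 5671 TPM in Con, and Fabp4 from 12906 to 23579 and from 10022 to 13373 TPM.

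CAC library 3 stood apart from the other 6 among the genes called higher. Of the 1700 genes called higher on both scales it held the lowest CAC value in 1313 (77.2%), and for 34.6% of them it lay inside or below the range of Con, against 0.529 to 3.76% in the other 6 CAC libraries. It also held 26830 TPM of 7 red blood cell markers, where the other CAC libraries held 103 to 2767 TPM and Con 1233 to 3001 TPM. Library 3 is included in the values and counts below. Without library 3 the number of genes called rose from 6797 to 7323, and the number called lower from 248 to 297. Among the 248 genes called lower, library 3 lay inside or above the range of Con for 49.6% and library 5 for 44.0%. The other CAC libraries did so for 4.84 to 16.1%. Without library 5 the number called fell to 6342, and the number called lower rose to 314.

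Of the 12581 tested genes, 6549 were called higher in CAC (52.1%) and 248 lower (1.97%). After rescaling 1700 were higher (13.5%) and 1614 lower (12.8%), and all 248 lower calls and all 1700 rescaled higher calls were called in the same direction on both scales. Every CAC library lay above every Con library in 1835 genes (14.6%) and below it in 54 (0.429%). These shares are the background against which each list below is read. The 40 process lists, 20 marker lists and 7 families were chosen with earlier results of these data known, so their counts are descriptions.

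Genes of acute phase proteins and glucocorticoid-responsive genes had the highest median changes of the 40 process lists. Of 38 acute phase genes 29 passed the filter on low values, and 24 of the 29 were called higher and none lower, on both scales (median log2 change 1.80 against 0.28 over all genes). In 20 of the 29 every CAC library lay above every Con library. The summed level of the 38 genes was 1289 TPM in CAC library 3, the lowest, 8776 TPM at the CAC median and 17242 TPM at the highest, against 489 to 729 TPM in Con. The 5 members that passed the filter without being called were Serpina1a, Serpina1b, Itih5, Fgg and Itih2, and the pentraxins Crp, Apcs and Ptx3 were among the 9 that did not pass.

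**Figure D1:**
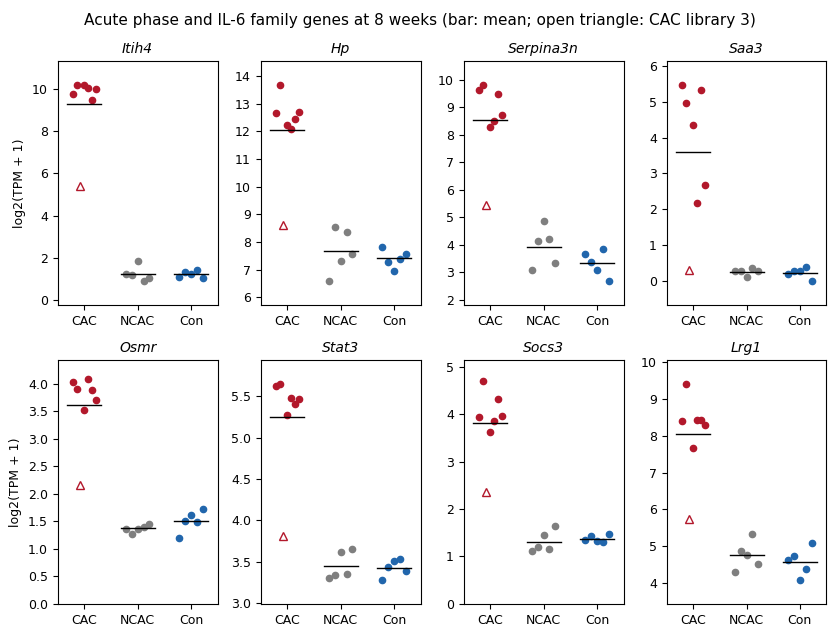
Levels of 8 genes of the acute phase response and of IL-6 family signalling in every library at 8 weeks, as log2(TPM + 1) on the vertical axis; each point is 1 library of CAC (7), NCAC (5) or Con (5), the horizontal bar is the group mean, and CAC library 3 is drawn as an open triangle. Library 3 was the lowest CAC library for Itih4, at 41.9 TPM, and still lay above the highest Con library, at 1.67 TPM.

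Itih4, an inhibitor heavy chain secreted in the acute phase (chromosome 14, 30886476 to 30902353, mm10), had the largest log2 change of all genes named by rule. Its level was 41.9 to 1176 TPM in CAC, with a median of 1012, and 1.13, 1.47, 1.31, 1.67 and 1.06 TPM in Con. Library 3 was the lowest of the 7 and still exceeded the highest Con library. The log2 change was 8.09 (SE 0.62), and 7.08 at 6 weeks. Haptoglobin, Hp, which captures free haemoglobin, had the highest CAC median of the 29, at 224, 155, 122, 168 and 190.02 TPM in the 5 Con libraries and 391 to 13174 TPM in CAC, with a median of 5663 (log2 change 4.66, SE 0.48, adjusted p = 1.14e-10). Of the alpha-1-antichymotrypsin genes, Serpina3n held 42.3 TPM in the lowest CAC library, 427 at the median and 905 in the highest, against 11.7, 9.50, 7.52, 13.3 and 5.40 TPM in Con, and rose by 5.23 (SE 0.48). Its neighbours Serpina3k and Serpina3m rose by 3.96 (SE 0.55) and 3.85 (SE 0.40), from Con means of 0.576 and 0.296 TPM to 44.2 and 25.1 TPM. For all 3 no CAC library reached down to Con. Serpina3c, Serpina3i and Serpina3h, the last annotated as a transcribed pseudogene, were called higher too. These genes are close copies, so the split of their reads is uncertain.

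Lrg1, a secreted leucine-rich glycoprotein, held 52.1 to 681 TPM in CAC, with a median of 339.8, and 23.6, 25.4, 15.9, 19.8 and 33.1 TPM in Con (log2 change 3.48, SE 0.35, adjusted p = 5.49e-11). Serum amyloid A 3, the form made outside the liver, held 0.144, 0.228, 0.223, 0.309 and 0 TPM in the 5 Con libraries and 0.239 to 43.2 TPM in CAC, with a median of 19.2 of Saa3 (log2 change 3.38, SE 0.47, adjusted p = 1.13e-07). All CAC libraries but library 3, at 0.239 TPM, lay above Con. Saa1 and Saa2 rose by 1.87 (SE 0.28) and 1.72 (SE 0.27), and the lipopolysaccharide-binding protein Lbp by 2.50 (SE 0.31). The orosomucoids Orm1, Orm2 and Orm3 rose by 1.47, 1.44 and 1.64 on the log2 scale. The fibrinogen chains parted. Fga was listed at 0 in all 5 Con libraries and at 69.8, 0.311, 0.0141, 9.26, 1.77, 43.1 and 1.78 TPM in CAC libraries 1 to 7. Fgb did not pass the filter, and Fgg was not called (log2 change 0.23). Transcripts that define hepatocytes were near 0 in both groups: the 12 hepatocyte markers summed to 4.02 to 10.2 TPM in CAC and 1.76 to 3.98 TPM in Con, and albumin, Alb, had a mean of 0.191 TPM in CAC and 0.105 TPM in Con. Of these markers 3 passed the filter and 1, Apoc3, was called higher (0.68, SE 0.28), not after rescaling. Leaving out CAC library 1 or 6 or Con library 1, 4 or 5 ended this call (log2 change 0.50 to 0.72).

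Promoter windows are shown for Itih4 and for Socs3, a target of STAT factors, because each holds a match to the paired half-sites that STAT factors bind, and for Saa3 because it holds a match to a C/EBP-type site. The Itih4 window is chr14:30886226-30886525 on the plus strand, the Saa3 window chr7:46715627-46715926 on the minus strand and the Socs3 window chr11:117969317-117969616 on the minus strand. Each runs from 250 bases before to 50 bases after the annotated start of transcription (RefSeq, GRCm38.p6, the assembly of mm10), 5′ to 3′ on the gene's strand, with the matched letters in capitals.
Itih4: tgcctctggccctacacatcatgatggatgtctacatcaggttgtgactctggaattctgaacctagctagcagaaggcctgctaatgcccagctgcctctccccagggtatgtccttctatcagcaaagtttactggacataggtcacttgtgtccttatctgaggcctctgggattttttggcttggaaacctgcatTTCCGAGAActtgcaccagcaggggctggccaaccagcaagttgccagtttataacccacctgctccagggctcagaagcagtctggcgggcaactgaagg
Saa3: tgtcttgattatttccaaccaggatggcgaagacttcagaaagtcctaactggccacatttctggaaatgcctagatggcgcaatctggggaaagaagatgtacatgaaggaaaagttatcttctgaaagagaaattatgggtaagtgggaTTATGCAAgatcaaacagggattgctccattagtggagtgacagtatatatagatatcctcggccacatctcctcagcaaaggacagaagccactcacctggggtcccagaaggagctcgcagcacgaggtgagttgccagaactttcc
Socs3: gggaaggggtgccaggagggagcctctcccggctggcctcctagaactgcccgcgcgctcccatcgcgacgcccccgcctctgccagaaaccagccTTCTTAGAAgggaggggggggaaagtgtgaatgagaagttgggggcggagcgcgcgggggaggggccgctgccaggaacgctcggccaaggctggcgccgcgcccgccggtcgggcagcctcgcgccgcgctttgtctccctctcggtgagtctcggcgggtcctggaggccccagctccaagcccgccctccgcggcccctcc
The capitals mark TTCNNNGAA in Itih4, with its first base 51 bases before the start, and in Socs3, 154 bases before it. In Saa3 they mark TTGCNNAA, read on the opposite strand, 99 bases before the start. Both strands were searched. Of the 29 tested acute phase genes 22 had a window in the table, and 13 of these held TTGCNNAA, against 10.8% of 32817 windows of the genome, while 5 held TTCNNNGAA, against 8.29%. The shares in 12006 windows of tested genes were 8.55% for TTGCNNAA and 6.83% for TTCNNNGAA. Of the 23 IL-6 family genes with a window, Socs3 among them, 2 held TTCNNNGAA and none held TTGCNNAA. A match is a description of letters, not of binding.

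Genes of IL-6 family signalling rose at the level of receptors, transcription factors and feedback inhibitors. Of 27 tested members of 33, 19 were called higher and none lower, and 12 were higher and 1 lower after rescaling (Stat5a, -0.70). The ligands Il6, Il11, Lif and Osm were below the filter. Among receptors, the oncostatin M receptor Osmr (chromosome 15, 6813577 to 6874969) held 3.49 TPM in the lowest CAC library, 13.7 at the median and 15.9 in the highest, against 1.30, 1.82, 2.07, 1.79 and 2.29 TPM in Con (log2 change 2.11, SE 0.22, adjusted p = 1.25e-10). The IL-6 receptor chain Il6ra rose by 1.34 (SE 0.25), and every CAC library lay above Con in both. The leukaemia inhibitory factor receptor Lifr rose by 1.02 (SE 0.21) and the shared subunit Il6st by 0.73 (SE 0.13), with library 3 inside the Con range of Il6st.

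Stat3, the transcription factor below these receptors, held 13.01 to 49.2 TPM in CAC, with a median of 43.3, and 8.68, 9.83, 10.3, 10.6 and 9.42 TPM in Con (log2 change 1.82, SE 0.19, adjusted p = 1.58e-10). Socs3, the inhibitor that STAT3 induces and that switches the receptor off, held 1.54, 1.67, 1.49, 1.46 and 1.76 TPM in the 5 Con libraries and 4.12 to 25.1 TPM in CAC, with a median of 14.3 (log2 change 2.45, SE 0.26, adjusted p = 1.53e-10). All 7 CAC libraries exceeded all Con libraries for both. The early response genes Cebpd, Junb and Myc rose by 2.21 (SE 0.32), 2.05 (SE 0.36) and 1.86 (SE 0.30), also without overlap. Members that were not called included Cebpb (0.24) and Pim1 (-0.13). The STAT5 target Socs2 was called higher on the TPM scale alone (1.02, rescaled adjusted p = 0.0508).

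Complement genes of the classical, alternative and terminal steps rose. Of 25 tested, 23 were called higher and none lower, 19 of them after rescaling, and 19 showed no overlap between the groups. Of the classical pathway, C4b held 181 TPM in the lowest CAC library, 686 at the median and 823 in the highest, against 9.39, 12.4, 12.4, 19.5 and 16.5 TPM in Con (log2 change 5.26, SE 0.34, adjusted p = 3.98e-17), and its close copy C4a rose by 3.59 (SE 0.33). C1qa, C1qb and C1qc, made by macrophages, rose by 1.67, 1.73 and 1.68. Of the alternative pathway, factor B, Cfb, held 10.3 to 38.97 TPM in CAC, with a median of 20.1, and 4.80, 3.08, 3.61, 4.64 and 2.83 TPM in Con (log2 change 2.27, SE 0.26, adjusted p = 9.11e-10). Factor D, Cfd, an adipocyte protease also known as adipsin, held 1121, 2388, 1788, 2595 and 2040.3 TPM in the 5 Con libraries and 3623 to 10178 TPM in CAC, with a median of 6157 (log2 change 1.79, SE 0.31, adjusted p = 9.60e-06). Both were separated from Con in every library. C3, where the pathways meet, rose by 1.39 (SE 0.22), with library 3 inside the Con range. Regulators rose beside the activators: Clu, clusterin (chromosome 14, 65968483 to 65981547), held 15.4 TPM in the lowest CAC library, 98.5 at the median and 139 in the highest, against 2.16, 4.24, 9.31, 6.57 and 3.20 TPM in Con (log2 change 3.88, SE 0.48, adjusted p = 1.06e-08), and the C1 inhibitor Serping1 rose by 1.65 (SE 0.21). Of the terminal components C6 rose by 2.24 (SE 0.20) and C7 by 1.63 (SE 0.22). Only Cd55 and Cd59a were not called, at 0.17 and 0.16.

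Chemokine transcripts were called in both directions. Of 48 chemokine and receptor genes 26 passed the filter, 11 were called higher and 2 lower, and 8 and 4 after rescaling, with a median of 0.22 that lay below that of all genes. Cxcl13, which attracts B cells, held 5.52 to 281 TPM in CAC, with a median of 89.5, and 0.833, 0.807, 0.859, 1.29 and 1.37 TPM in Con (log2 change 5.29, SE 0.60, adjusted p = 9.24e-10). Ccl8, a ligand made by resident macrophages, held 5.47, 1.42, 1.31, 3.29 and 3.01 TPM in the 5 Con libraries and 28.04 to 249 TPM in CAC, with a median of 49.3 (log2 change 4.14, SE 0.46, adjusted p = 6.31e-10), with CAC library 2 far above the rest. Ccl6 and Ccl9 rose by 2.43 (SE 0.37) and 2.24 (SE 0.32), and the decoy receptor Ackr1 by 1.66 (SE 0.20). For these 5 genes no CAC library overlapped Con. The calls in the other direction were Cxcl9 (-0.83, SE 0.24) and Cxcl15 (-1.26, SE 0.42). Ccl2 and Cxcl10, 2 widely used markers of inflamed fat, did not pass the filter.

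The cytokines Il1b and Tnf were below the filter as well, whereas receptors and inhibitors of these pathways rose: of 29 tested genes 24 were called higher and none lower, and 16 and 1 after rescaling. Irak3, which restrains Toll-like receptor signalling, held 6.59 TPM in the lowest CAC library, 23.3 at the median and 31.6 in the highest, against 3.61, 4.39, 4.01, 4.66 and 4.57 TPM in Con (log2 change 1.92, SE 0.21, adjusted p = 3.29e-10). The tumour necrosis factor receptors Tnfrsf1b and Tnfrsf1a rose by 1.67 (SE 0.24) and 1.22 (SE 0.17), and the IL-18 binding protein Il18bp by 1.23 (SE 0.18). Il15, a lymphocyte survival factor, was lower after rescaling (-0.39). The receptor chain Csf2rb, shared by IL-3, IL-5 and GM-CSF, rose by 2.19 (SE 0.24) and Csf2rb2 by 2.04 (SE 0.19). The macrophage growth factor receptor Csf1r rose by 1.36 (SE 0.19), and all 3 genes rose without overlap.

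Markers of macrophages and monocytes moved with these genes, and their part in the counts above was not tested. Of 17 tested macrophage markers 16 were called higher, 15 after rescaling with 1 lower, and their summed level was 184 to 518 TPM in CAC, 184 TPM in library 3, against 91.5 to 118 TPM in Con. Cd163, the scavenger receptor for haptoglobin and haemoglobin, held 6.53 to 30.3 TPM in CAC, with a median of 23.8, and 2.46, 2.34, 2.63, 2.40 and 3.19 TPM in Con (log2 change 2.53, SE 0.28, adjusted p = 8.18e-10). Clec10a and Mrc1, which mark tissue-resident macrophages, rose by 2.20 (SE 0.29) and 1.79 (SE 0.21). Of 6 tested monocyte markers 5 rose, 4 after rescaling, with sums of 23.1 to 81.6 TPM against 14.2 to 18.5 TPM. Of 7 tested neutrophil markers 5 rose on both scales, with sums of 17.5 to 60.4 TPM against 11.5 to 19.1 TPM. Library 3 held the highest neutrophil sum and the lowest macrophage and monocyte sums. The dendritic cell marker Cd209a rose by 1.72 (SE 0.22).

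Genes of antigen presentation split by class. Of 23 tested, 13 were called higher and none lower, 8 after rescaling, and the calls were members of the class I machinery apart from the co-stimulator Cd86. H2-D1 held 203, 98.2, 104, 137 and 158 TPM in the 5 Con libraries and 134 to 662 TPM in CAC, with a median of 329 (log2 change 1.24, SE 0.32, adjusted p = 0.00128), H2-T22 rose by 1.26 (SE 0.17), the light chain B2m by 0.89 (SE 0.17), and the class I activator Nlrc5 by 1.18 (SE 0.16). None of the 7 class II genes was called. H2-Aa held 8.10 TPM in the lowest CAC library, 24.6 at the median and 46.4 in the highest, against 53.8, 29.6, 28.7, 21.96 and 21.5 TPM in Con (log2 change -0.46, SE 0.38, adjusted p = 0.300) and Cd74, the invariant chain, 20.9 to 122 TPM in CAC, with a median of 73.6, and 126, 68.5, 73.6, 59.9 and 57.5 TPM in Con (log2 change -0.33, SE 0.37, adjusted p = 0.463). Con library 1 held the highest value of both, far above the other 4 Con libraries. Of 37 tested interferon-stimulated genes 15 were called higher and 1 lower, 8 and 4 after rescaling, at a median of 0.30. Ifitm1, Ifitm2 and Ifitm3, membrane proteins that restrict virus entry, rose by 1.49 (SE 0.26), 1.20 (SE 0.14) and 1.02 (SE 0.18), and Irf7 by 1.10 (SE 0.24), while Isg15 stood at 0.12 and the lower call was Cmpk2 (-0.62, SE 0.17).

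Of 5 tested B cell markers none was called higher and 1 lower, and 4 were lower after rescaling. Ighm, the heavy chain of IgM, held 38.5, 63.9, 32.1, 20.01 and 21.2 TPM in the 5 Con libraries and 5.62 to 17.5 TPM in CAC, with a median of 13.2 (log2 change -1.45, SE 0.37, adjusted p = 0.00117), with every CAC library below every Con library. The kappa constant region Igkc stood at -1.24 (SE 0.56) on the TPM scale, where it was not called, and at -1.52 after rescaling, where it was (adjusted p = 0.0382). The sum of 10 B cell markers was 8.42 to 20.6 TPM in CAC and 25.9 to 69.9 TPM in Con. Of 16 T and NK cell markers 1 passed the filter, and their sum was 1.47 to 3.93 TPM in CAC and 1.70 to 5.63 TPM in Con. Of 10 melanocyte markers 3 passed the filter, and 2 of these were called higher and none lower, 1 and 0 after rescaling. Gpnmb, which macrophages also express, stood at 1.09 (SE 0.27). Pmel, Mlana, Dct, Tyr and Tyrp1 did not pass. The sum of the 10 markers was 4.60 to 16.8 TPM in CAC and 3.53 to 10.1 TPM in Con.

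Metal handling showed 3 large rises within an otherwise small shift. Of 20 tested genes of metallothioneins and zinc transport 13 were called higher and none lower, but after rescaling 5 were higher and 2 lower. Mt1 and Mt2, small cysteine-rich proteins that bind zinc, had the largest log2 changes of the list. Mt1 held 448 TPM in the lowest CAC library, 3196 at the median and 6271 in the highest, against 247, 278, 322, 259 and 309 TPM in Con (log2 change 3.24, SE 0.38, adjusted p = 3.20e-09) and Mt2 held 249.8 to 4708 TPM in CAC, with a median of 2619, and 90.1, 96.9, 161, 62.5 and 90.4 TPM in Con (log2 change 4.30, SE 0.48, adjusted p = 9.24e-10). Library 3 was the lowest CAC library of both, above Con. Slc39a14, a zinc importer of the cell surface known as ZIP14 (chromosome 14, 70303469 to 70351425), held 4.34, 5.24, 7.15, 7.63 and 8.10 TPM in the 5 Con libraries and 9.98 to 203 TPM in CAC, with a median of 63.1 (log2 change 3.17, SE 0.41, adjusted p = 3.45e-08). The other importer called on both scales by rule was Slc39a1 (0.81, SE 0.11), and Slc39a8 (-0.01) and Slc39a10 (0.17) were not called. The zinc-sensing factor Mtf1 rose by 0.54 (SE 0.17) on the TPM scale only.

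The windows of the metallothioneins, chr8:94178839-94179138 on the plus strand for Mt1 and chr8:94172368-94172667 on the plus strand for Mt2, are printed because the genes lie side by side and both rose.
Mt1: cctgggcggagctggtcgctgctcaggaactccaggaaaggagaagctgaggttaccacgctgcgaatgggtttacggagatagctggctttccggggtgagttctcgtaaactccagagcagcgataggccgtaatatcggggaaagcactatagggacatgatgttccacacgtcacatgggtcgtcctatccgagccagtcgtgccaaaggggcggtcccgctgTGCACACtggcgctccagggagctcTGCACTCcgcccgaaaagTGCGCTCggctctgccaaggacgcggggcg
Mt2: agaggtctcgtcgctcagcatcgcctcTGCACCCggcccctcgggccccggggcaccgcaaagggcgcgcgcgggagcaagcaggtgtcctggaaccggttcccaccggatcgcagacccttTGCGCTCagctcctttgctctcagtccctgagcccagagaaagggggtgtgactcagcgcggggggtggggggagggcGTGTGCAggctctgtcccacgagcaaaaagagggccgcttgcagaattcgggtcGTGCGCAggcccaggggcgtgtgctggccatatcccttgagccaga
The capitals mark TGCACNC or TGCGCNC, the core of the metal response element that MTF1 binds, on either strand. Mt1 held 3 matches, with first bases 23 bases before and 2 and 20 bases after the start, and Mt2 held 4, at 223, 128 and 50 bases before and 4 bases after it. Of all windows 25.7% held at least 1 match, and of 12006 windows of tested genes 35.2%. Of 18 tested genes of metallothioneins and zinc transport with a window, 10 held 1.

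Several genes of haem and iron capture rose, and the iron exporter fell. Of 27 tested iron genes 17 were called higher and 2 lower, 8 and 3 after rescaling. Hmox1, which breaks down haem, held 9.92 TPM in the lowest CAC library, 28.4 at the median and 45.5 in the highest, against 6.24, 7.30, 7.81, 5.70 and 9.95 TPM in Con (log2 change 1.73, SE 0.27, adjusted p = 1.30e-06), with library 3 inside the Con range, and the haem scavenger Hpx rose by 1.40 (SE 0.28). The ferroxidase ceruloplasmin, Cp, rose by 1.78 (SE 0.18) and the reductase Steap4 by 1.32 (SE 0.23), both without overlap. Hpx, Cp and Steap4 are also in the acute phase list and are counted there. Ferroportin, Slc40a1, the only known iron exporter, held 0.990 to 10.03 TPM in CAC, with a median of 2.02, and 5.41, 5.31, 5.74, 4.92 and 5.61 TPM in Con (log2 change -0.89, SE 0.29, adjusted p = 0.0100). CAC library 1 lay above Con and the other 6 below it. The transferrin receptor Tfrc was not called (0.06, SE 0.21), nor was the iron-sensing Ireb2 (0.22). The ferritin chains Ftl1 and Fth1 rose by 0.75 (SE 0.14) and 0.54 (SE 0.11), the second on the TPM scale only. Hamp, which encodes the iron hormone hepcidin, was below the filter.

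Glucocorticoid-responsive genes were among the largest changes outside the immune lists. Of 25 tested, 19 were called higher and 1 lower, 15 and 3 after rescaling, with a median of 1.80. The higher calls include Mt1 and Mt2, described above with metal handling. Ddit4 is also counted in the lists of insulin signalling and the integrated stress response. Fkbp5, a co-chaperone of the glucocorticoid receptor (chromosome 17, 28399094 to 28517527), held 1.13, 1.44, 1.76, 3.66 and 6.26 TPM in the 5 Con libraries and 5.81 to 150.4 TPM in CAC, with a median of 81.8 (log2 change 4.21, SE 0.66, adjusted p = 1.36e-06). Library 3 lay within Con and the other 6 exceeded every Con library. Hsd11b1, which regenerates active glucocorticoid inside fat cells (chromosome 1, 193221634 to 193264075), held 21.7 TPM in the lowest CAC library, 54.5 at the median and 87.5 in the highest, against 8.50, 7.43, 6.05, 9.16 and 5.82 TPM in Con (log2 change 2.60, SE 0.28, adjusted p = 3.25e-10), here with no overlap. Tsc22d3, known as GILZ, rose by 1.86 (SE 0.43), Ddit4, an inhibitor of mTORC1, by 2.44 (SE 0.53) and Zbtb16 by 2.05 (SE 0.63). For these 3 genes library 3 again lay within Con, as did library 7 for Zbtb16. The receptor Nr3c1 was not called (-0.20) and was lower after rescaling (-0.54). Cdkn1c, a cell cycle inhibitor induced by glucocorticoid elsewhere, fell by 1.41 (SE 0.21).

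**Figure D2:**
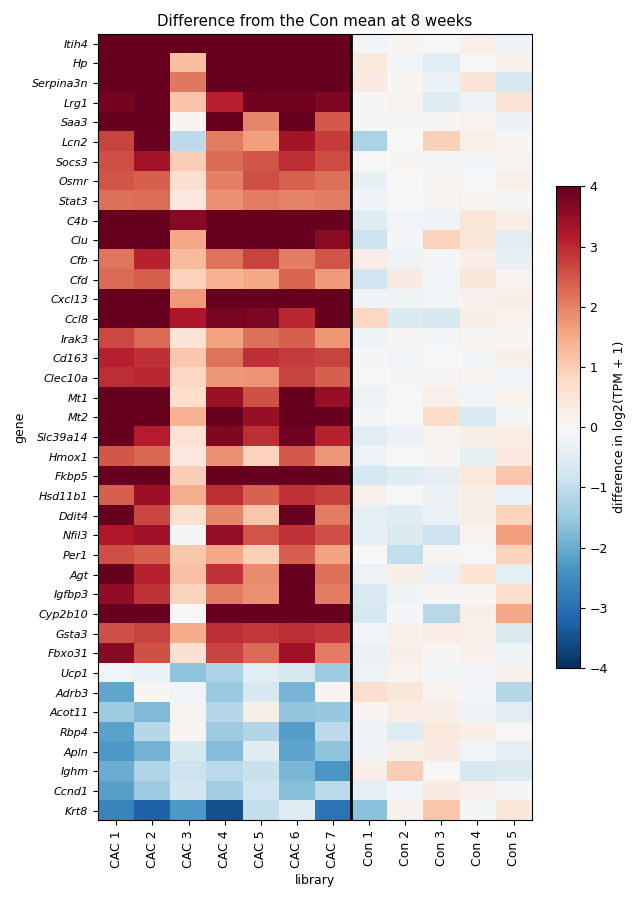
Difference from the Con mean, in log2(TPM + 1), of 40 genes named in the text (rows) in each of the 7 CAC and 5 Con libraries (columns), with red for higher and blue for lower and the scale capped at 4 in either direction. The column of CAC library 3 is paler than those of the other 6 CAC libraries in the upper block; it held the lowest CAC value in 77.2% of the genes called higher on both scales.

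Among clock genes a repressor and the period genes Per1 and Per2 rose. Of 22 tested, 10 were called higher and 1 lower, 4 and 1 after rescaling. Nfil3, a repressor of the output genes, held 6.21 to 84.8 TPM in CAC, with a median of 55.4, and 4.97, 4.06, 3.26, 7.07 and 22.8 TPM in Con (log2 change 2.57, SE 0.54, adjusted p = 1.08e-04). Per1, which is also a direct glucocorticoid target, held 10.4, 4.84, 11.4, 10.4 and 20.6 TPM in the 5 Con libraries and 21.3 to 67.9 TPM in CAC, with a median of 34.3 (log2 change 1.80, SE 0.42, adjusted p = 4.78e-04) and Per2 rose by 1.35 (SE 0.47) on the TPM scale only. Leaving out Con library 2 ended this call (log2 change 1.01). Bhlhe41 fell by 0.63 (SE 0.22). The core activators Arntl and Clock were not called (0.26 and 0.10), nor were Nr1d1 (-0.90) and Dbp (-0.26). CAC library 5 stood apart, with 14.9 TPM of Arntl and 7.84 TPM of Dbp where the other 6 held at most 1.99 TPM of Arntl and at least 31.9 TPM of Dbp. The labels used here do not give the hour of dissection.

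Among thermogenic genes more were called lower than higher. Of 25 tested, 5 were higher and 6 lower, and 2 and 13 after rescaling, with a median of -0.14. Ucp1 held 1639.9 TPM in the lowest CAC library, 3198 at the median and 4659 in the highest, against 4424, 5555, 4796, 4864 and 5671 TPM in Con (log2 change -0.82, SE 0.25, adjusted p = 0.00571). Library 1 lay within Con and the other 6 CAC libraries below it, with library 3 the lowest. Acot11, a thioesterase that trims fatty acyl-CoA and is induced in cold brown fat, held 77.2 to 309 TPM in CAC, with a median of 99.03, and 279.9, 328, 321, 231 and 193 TPM in Con (log2 change -1.01, SE 0.24, adjusted p = 5.63e-04). Ppara, the nuclear receptor for fatty acid oxidation, fell by 0.78 (SE 0.30). Leaving out CAC library 1 or 6 or Con library 1 or 2 ended this call (log2 change -0.71 to -0.68). Members that rose were Cyp2b10, discussed below with the drug-metabolising genes, Mpzl2 (1.18, SE 0.26) and, on the TPM scale alone, Cidea (0.42, SE 0.11). Dio2, which makes active thyroid hormone, was not called (0.59, SE 0.60).

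In the adrenergic pathway the receptor Adrb3 was lower. Adrb3, the main beta receptor of adipocytes, held 146, 129.6, 103, 87.5 and 42.05 TPM in the 5 Con libraries and 21.6 to 99.1 TPM in CAC, with a median of 59.7 (log2 change -0.86, SE 0.33, adjusted p = 0.0253). Leaving out CAC library 1, 4 or 6 or Con library 1 or 2 ended this call (log2 change -0.76 to -0.66). Adrb1 was not called (-0.01). Of 36 tested genes of the pathway 13 were called higher and 3 lower, but 2 were higher and 10 lower after rescaling, so most of its direction depends on the scale. Prkar2b, the regulatory subunit of protein kinase A in fat, fell by 0.38 (SE 0.13) and the anchor protein Akap1 by 0.46 (SE 0.16), on both scales. The cyclic AMP-induced receptors Nr4a1 and Nr4a3 stood at 1.45 (SE 1.02) and 1.62 (SE 0.76) and were not called.

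Transcription factors that set brown fat identity were mostly uncalled. Of 32 tested, 10 were called higher and 1 lower, 4 and 6 after rescaling. Prdm16 (0.03), Ebf2 (-0.12) and Ppargc1a (0.07) were not called, and Pparg stood at 0.25 (SE 0.10), a call on the TPM scale that turned to -0.11 after rescaling. For Pparg leaving out CAC library 2, 5 or 6 or Con library 1, 2 or 3 ended the call (log2 change 0.20 to 0.24). Ppard, Rxra and Plac8 rose on both, by 0.87 (SE 0.18), 0.72 (SE 0.13) and 2.03 (SE 0.34); Plac8 is also a monocyte marker and is counted there. Of 25 secreted factors known from brown fat 8 rose and 2 fell, 3 and 5 after rescaling. Slit3, Fgf2 and Igf1 rose on both scales by 1.12 (SE 0.21), 1.01 (SE 0.21) and 0.90 (SE 0.22), and Pm20d1, which makes N-acyl amino acids, fell by 0.43 (SE 0.17). Leaving out CAC library 1, 2, 6 or 7 or Con library 1 or 3 ended this call (log2 change -0.39 to -0.33).

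Adipocyte hormones were called in both directions. Of 22 tested, 15 were called higher and 2 lower, 10 and 2 after rescaling. Agt, angiotensinogen, held 3.52 TPM in the lowest CAC library, 14.1 at the median and 43.1 in the highest, against 0.770, 1.37, 0.731, 1.95 and 0.583 TPM in Con (log2 change 2.85, SE 0.40, adjusted p = 1.99e-07). Retn, resistin, held 172 to 441 TPM in CAC, with a median of 337, and 71.96, 122, 117, 159 and 82.01 TPM in Con (log2 change 1.53, SE 0.34, adjusted p = 2.07e-04), and Rarres2, chemerin, rose by 1.58 (SE 0.16). All 3 were separated from Con in every library. Agt and Retn are also in a list of 8 markers of white fat, of which 5 were tested. Of these 5, 2 were called higher and none lower, on both scales. The sum of the 8 markers, Retn included, was 190 to 482 TPM in CAC and 92.9 to 178 TPM in Con. The part of white fat in these changes was not tested. Lcn2, a siderophore-binding protein, held 0.847, 3.45, 7.58, 4.07 and 3.60 TPM in the 5 Con libraries and 1.11 to 66.6 TPM in CAC, with a median of 27.7 (log2 change 2.21, SE 0.72, adjusted p = 0.00874), with library 3 within Con. In the other direction, Rbp4, the retinol carrier, held 63.9 TPM in the lowest CAC library, 131 at the median and 318 in the highest, against 265, 211, 404, 357 and 301 TPM in Con (log2 change -1.29, SE 0.25, adjusted p = 4.12e-05), with library 3 within Con. Serpina12, vaspin, which is not in the list, fell by 1.06 (SE 0.25) and the peptide Apln by 1.54 (SE 0.29), with every CAC library below Con. Lep was not called (-0.84, SE 0.49), at 0.0678 to 12.6 TPM in CAC and 7.02 to 13.7 TPM in Con. Adipoq rose by 0.61 (SE 0.12). Agt and Lcn2 are also counted in the acute phase list, and Cfd, described with complement, is counted among the hormones too.

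**Figure D3:**
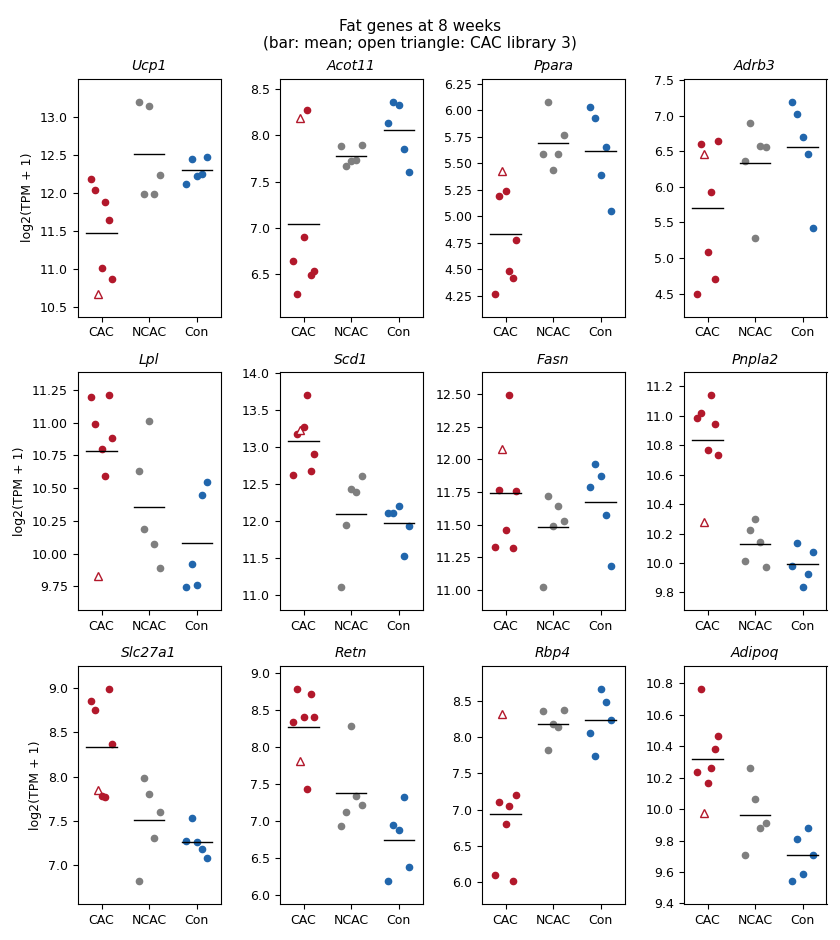
Levels of 12 genes of heat production, adrenergic signalling, lipid handling and hormones in every library at 8 weeks, as log2(TPM + 1) on the vertical axis; each point is 1 library of CAC (7), NCAC (5) or Con (5), the horizontal bar is the group mean, and CAC library 3 is drawn as an open triangle. Scd1 and Pnpla2 were higher in every CAC library than in every Con library.

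Single genes of lipid uptake, desaturation and lipolysis rose. Of 34 tested genes of lipid uptake and activation 15 were called higher and none lower, 8 and 5 after rescaling. The lipoprotein receptors Lrp1 and Scarb1 rose by 1.97 (SE 0.23) and 1.56 (SE 0.17) and the fatty acid transporter Slc27a1 by 1.07 (SE 0.27), all without overlap. Lpl held 909 to 2364 TPM in CAC, with a median of 1886, and 856, 968, 864, 1392 and 1494 TPM in Con and was called on the TPM scale only (log2 change 0.70, SE 0.20, adjusted p = 0.00343). Of 25 fatty acid synthesis genes 7 were higher and none lower, 4 and 3 after rescaling. Scd1, the delta-9 desaturase, held 4403, 4408, 4726, 2967 and 3922 TPM in the 5 Con libraries and 6285 to 13276 TPM in CAC, with a median of 9208 (log2 change 1.10, SE 0.26, adjusted p = 5.23e-04), whereas Fasn and Acaca, the enzymes of chain synthesis, were not called (0.07, SE 0.18 and 0.07, SE 0.21).

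Of 30 genes of lipolysis and the lipid droplet 14 were called higher and 2 lower, 7 and 7 after rescaling. Pnpla2, adipose triglyceride lipase, held 1240.3 TPM in the lowest CAC library, 1966 at the median and 2254 in the highest, against 1008, 1127, 913, 971 and 1078 TPM in Con (log2 change 0.85, SE 0.12, adjusted p = 9.81e-08). Its co-activator Abhd5 rose by 0.95 (SE 0.18), and Hcar2, a receptor that restrains lipolysis, by 1.17 (SE 0.32). The natriuretic peptide receptor Npr1 rose by 0.80 (SE 0.15), and its clearance counterpart Npr3 was not called (-0.09). Mgll, the lipase of the last step, fell by 0.38 (SE 0.15) and Cideb, a lipid droplet protein, by 1.00 (SE 0.21). For Mgll leaving out CAC library 4 or 6 or Con library 1 or 2 ended the call (log2 change -0.37 to -0.32). Plin1 was not called (-0.06) and was lower after rescaling (-0.42). The 2 sterol enzymes Fdft1 and Cyp51 rose by 1.38 (SE 0.32) and 1.11 (SE 0.29) while Hmgcs1 fell by 0.60 (SE 0.22), within a cholesterol list with 8 calls upward and 2 downward among its 26 genes (3 and 3 after rescaling). For Hmgcs1 leaving out CAC library 1 or 6 or Con library 2 ended the call (log2 change -0.51 to -0.47).

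Genes of mitochondrial oxidation changed direction with the scale. Of 31 genes of fatty acid oxidation 8 were higher and 3 lower on the TPM scale and 1 and 13 after rescaling; of 23 genes of the citric acid cycle 7 and 3, and 1 and 15. The pyruvate carboxylase Pcx rose on both (0.77, SE 0.12). Suclg1, a subunit of succinyl-CoA ligase, held 212 to 302 TPM in CAC, with a median of 224, and 306, 351, 325, 318 and 317 TPM in Con (log2 change -0.39, SE 0.08, adjusted p = 1.76e-04) and was lower in every CAC library than in Con. Of 91 nuclear genes of oxidative phosphorylation 23 were higher and none lower, and after rescaling none was higher and 41 were lower. Of 77 genes of the mitochondrial ribosome the counts were 23 and 0, and 0 and 36. Of the 13 mitochondrially encoded genes 9 were lower on the TPM scale and 12 after rescaling. mt-Nd6, the only protein gene of the light strand, fell by 0.98 (SE 0.28), mt-Nd2 by 0.52 (SE 0.11) and mt-Atp6 by 0.43 (SE 0.10).

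**Figure D4:**
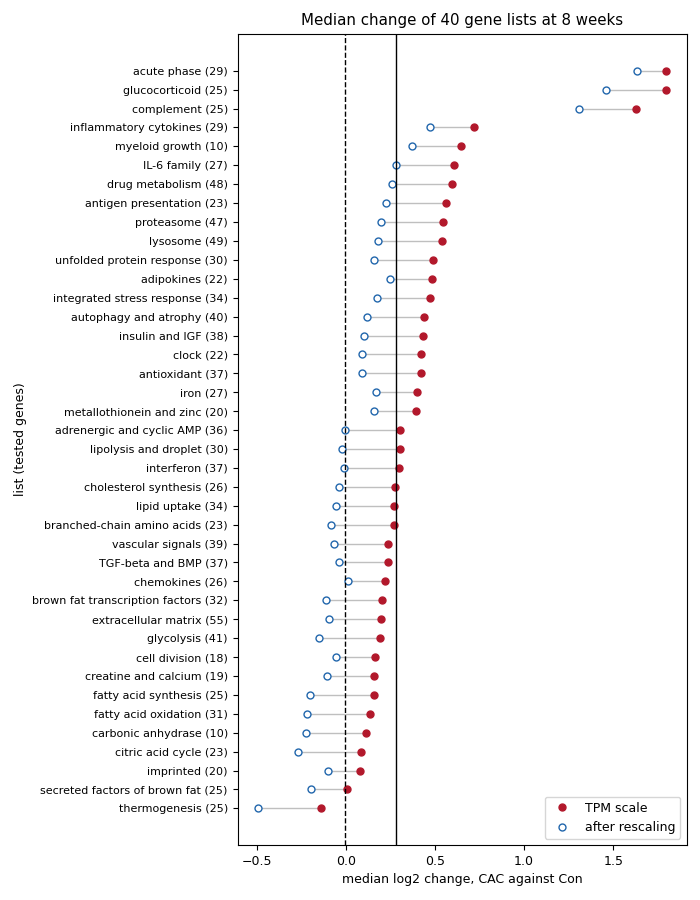
Median log2 change between CAC and Con at 8 weeks of the tested members of each of 40 process lists, on the TPM scale (filled circles) and after median-of-ratios rescaling (open circles), sorted by the first; the vertical lines mark the medians of all 12581 tested genes, 0.28 (solid) and -0.01 (dashed). The acute phase, glucocorticoid and complement lists had the highest medians and thermogenesis the lowest.

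Of 41 tested glycolysis and glycogen genes 10 were higher and none lower, 3 and 10 after rescaling. Gyg, glycogenin, rose by 1.12 (SE 0.18) and the widely expressed glucose transporter Slc2a1 by 0.81 (SE 0.17), while the insulin-regulated Slc2a4 (0.09, SE 0.14) and Hk2 (0.17, SE 0.21) were not called. Of 23 genes of branched-chain amino acid breakdown 12 were higher and none lower, 2 and 5 after rescaling. The higher calls on both scales were Bcat2, the first transaminase, which held 130.03, 158, 135, 187 and 101 TPM in the 5 Con libraries and 197 to 307 TPM in CAC, with a median of 273 (log2 change 0.88, SE 0.23, adjusted p = 0.00119), and Hsd17b10 (1.37, SE 0.18).

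Of 38 tested genes of insulin and IGF signalling 23 were called higher and 3 lower, 15 and 10 after rescaling. Igfbp3, the main circulating IGF carrier (chromosome 11, 7206086 to 7213923), held 14.1 TPM in the lowest CAC library, 33.9 at the median and 156 in the highest, against 4.51, 6.24, 7.43, 7.62 and 11.98 TPM in Con (log2 change 2.50, SE 0.39, adjusted p = 1.08e-06), and Igfbp4 rose by 1.99 (SE 0.30). Irs2 held 6.01 to 118 TPM in CAC, with a median of 49.3, and 8.25, 1.95, 4.84, 8.79 and 14.2 TPM in Con (log2 change 2.20, SE 0.66, adjusted p = 0.00446), with libraries 3 and 5 within Con, and Irs1 was not called on the TPM scale (-0.24) and was lower after rescaling (-0.57). Grb14, an adaptor that inhibits the insulin receptor (chromosome 2, 64912476 to 65024987), held 6.49, 5.74, 6.41, 5.36 and 5.78 TPM in the 5 Con libraries and 1.15 to 4.24 TPM in CAC, with a median of 2.55 (log2 change -1.03, SE 0.19, adjusted p = 2.51e-05), with every CAC library below Con. Grb10, a relative, rose by 0.75 (SE 0.17). The receptor Insr rose by 0.58 (SE 0.11).

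Drug-metabolising genes of several families rose. Of 48 tested, 30 were called higher and none lower, 19 and 6 after rescaling, and in 17 the groups did not overlap. Cyp2b10, the classic target of the nuclear receptor CAR, held 5.47 TPM in the lowest CAC library, 189 at the median and 632 in the highest, against 3.16, 5.33, 2.06, 6.75 and 17.99 TPM in Con (log2 change 4.63, SE 0.96, adjusted p = 1.02e-04), with library 3 within Con. Nr1i3, which encodes CAR, was below the filter. The glutathione transferase Gsta3 held 14.8 to 43.03 TPM in CAC, with a median of 39.4, and 4.26, 5.51, 5.95, 5.49 and 2.82 TPM in Con (log2 change 2.62, SE 0.44, adjusted p = 5.51e-06). The sulfotransferase Sult1a1 rose by 2.32 (SE 0.31), Cyp2f2 by 2.25 (SE 0.55) and the flavin monooxygenase Fmo2 by 2.06 (SE 0.32). Of 37 antioxidant genes 23 were higher and none lower, 8 and 7 after rescaling. Ucp2 rose by 1.94 (SE 0.39), the selenium carrier Sepp1 by 1.28 (SE 0.15) and Msrb1 by 1.12 (SE 0.17), while Nqo1, a standard NRF2 target, was not called (0.32, SE 0.20). Of 10 tested carbonic anhydrases 3 were called higher, Car5b by 1.20 (SE 0.26), Car4 by 0.82 (SE 0.18) and, on the TPM scale alone, Car1 by 0.45 (SE 0.17). Car7, Car8 and Car14 were called lower, at -0.48 (SE 0.14), -0.73 (SE 0.10) and -0.62 (SE 0.27). For Car1 leaving out CAC library 2 or 7 or Con library 2 or 5 ended the call (log2 change 0.37 to 0.41). For Car14 leaving out CAC library 2, 3, 4 or 7 or Con library 3, 4 or 5 ended the call (log2 change -0.59 to -0.51).

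Most genes of the proteasome and the lysosome were called higher on the TPM scale. Of 47 proteasome genes 44 were called higher and none lower, 24 and 1 after rescaling, and 31 showed no overlap; their sum was 2469 to 3515 TPM in CAC and 1859 to 2225 TPM in Con. Psmc1 and Psma6 rose by 0.78 (SE 0.11) and 0.76 (SE 0.13), and the immunoproteasome subunit Psmb8 by 0.82 (SE 0.22). Of 49 lysosome genes 44 were higher, 21 after rescaling with 1 lower; the cathepsin Ctss, abundant in macrophages, rose by 1.54 (SE 0.32) and Lgmn by 1.35 (SE 0.14). Of 40 genes of autophagy and atrophy 29 were higher and none lower, 10 and 3 after rescaling. Fbxo31, a ubiquitin ligase subunit, held 15.1, 21.5, 18.8, 20.9 and 16.1 TPM in the 5 Con libraries and 28.2 to 241 TPM in CAC, with a median of 113 (log2 change 2.46, SE 0.33, adjusted p = 4.52e-08), Map1lc3b, which coats autophagosomes, rose by 1.10 (SE 0.12) and the lysosomal protease Ctsl by 1.26 (SE 0.16). The muscle atrophy ligase Fbxo32 was not called (0.59, SE 0.42).

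Of 34 genes of the integrated stress response 25 were higher, 8 after rescaling with 2 lower. Psat1, of serine synthesis, rose by 1.36 (SE 0.25), Slc3a2 by 1.28 (SE 0.29) and Ppp1r15a, which reverses the response, by 1.13 (SE 0.22), whereas Ddit3 was not called (-0.01, SE 0.18). Of 30 genes of the unfolded protein response 24 were higher, 10 after rescaling with 2 lower; Xbp1 rose by 1.17 (SE 0.21) and Hspa5 by 0.64 (SE 0.14). Of 79 cytosolic ribosomal protein genes 76 were higher and none lower, and 25 after rescaling. Rps12 had the largest change among those named, at 1.66 (SE 0.44), and Rplp0 rose by 0.67 (SE 0.15).

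Vascular genes changed in both directions. Of 39 tested, 17 were higher and 5 lower, 8 and 12 after rescaling. Plvap, which forms the diaphragms of fenestrated vessels, held 10.3 TPM in the lowest CAC library, 33.8 at the median and 73.3 in the highest, against 4.74, 7.31, 9.02, 8.25 and 7.51 TPM in Con (log2 change 2.04, SE 0.25, adjusted p = 5.74e-09). Procr and Icam1 rose by 1.18 (SE 0.24) and 0.99 (SE 0.18), and Gpihbp1, which carries lipoprotein lipase to the vessel wall, by 0.83 (SE 0.19). Apln, a growth signal of sprouting vessels, held 0.216 to 3.35 TPM in CAC, with a median of 0.806, and 4.42, 6.16, 6.76, 4.59 and 3.73 TPM in Con (log2 change -1.54, SE 0.29, adjusted p = 2.50e-05), and the VEGF receptor Kdr fell by 0.51 (SE 0.17). Of 14 endothelial markers 7 were higher and 1, Kdr, lower, 3 and 2 after rescaling. Their sum was 256 to 363 TPM in CAC and 203 to 281 TPM in Con. Of 37 genes of the TGF-beta and BMP pathways 13 rose and 1 fell, 6 and 8 after rescaling, with Tgfbr2 at 1.09 (SE 0.18) and Smad3 at 1.24 (SE 0.22).

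Of 55 matrix genes 21 were higher and 2 lower, 12 and 12 after rescaling. The protease Mmp3 rose by 2.25 (SE 0.41) and its inhibitors Timp1 and Timp4 by 1.05 (SE 0.29) and 1.53 (SE 0.37); Col1a1 (-0.26, SE 0.39) and Fn1 (-0.71, SE 0.32) were not called on the TPM scale, and Fn1 was lower after rescaling. Of 20 imprinted genes 5 rose and 5 fell, 3 and 8 after rescaling. Peg3 rose by 1.23 (SE 0.32). Cdkn1c held 13.04, 13.99, 15.1, 8.98 and 15.9 TPM in the 5 Con libraries and 2.13 to 5.82 TPM in CAC, with a median of 4.45 (log2 change -1.41, SE 0.21, adjusted p = 3.47e-07) and Igf2 fell by 0.39 (SE 0.12), both below Con in every CAC library, and Ndn fell by 1.19 (SE 0.19). Of 18 tested cell cycle genes 6 were called higher and 2 lower, 1 and 2 after rescaling. The sum of the 40 genes listed was 79.8 to 103 TPM in CAC and 58.9 to 74.0 TPM in Con. Among them Ccnd1, cyclin D1 (chromosome 7, 144929931 to 144939925), held 0.318 TPM in the lowest CAC library, 1.27 at the median and 2.63 in the highest, against 3.60, 4.59, 6.70, 5.78 and 4.75 TPM in Con (log2 change -1.33, SE 0.33, adjusted p = 9.10e-04), again below Con in every CAC library. Mki67, Top2a and Ccnb1 were below the filter.

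Epithelial genes were among those with the largest falls. Of 17 tested epithelial markers 8 were called lower and none higher, on both scales. Krt8 held 0.201 to 8.84 TPM in CAC, with a median of 1.13, and 3.38, 14.3, 28.3, 11.8 and 17.7 TPM in Con (log2 change -2.30, SE 0.79, adjusted p = 0.0122) and Aqp5, a water channel of glands, 1.63, 5.81, 13.9, 5.57 and 14.6 TPM in the 5 Con libraries and 0 to 1.29 TPM in CAC, with a median of 0.169 (log2 change -2.44, SE 0.70, adjusted p = 0.00324). CAC libraries 5 and 6 lay within Con for Krt8, Krt18, Krt19 and Epcam. For Krt18 leaving out CAC library 2, 4 or 7 or Con library 3 or 5 ended the call (log2 change -2.12 to -1.90). For Epcam leaving out CAC library 1, 2, 3, 4 or 7 or Con library 2, 3, 4 or 5 ended the call (log2 change -1.67 to -1.38). The sum of 18 epithelial markers was 1.71 to 56.1 TPM in CAC and 21.1 to 147 TPM in Con, so the level varied several-fold within Con as well. Perm1, a muscle and fat regulator of oxidative genes, held 4.88 TPM in the lowest CAC library, 10.4 at the median and 13.1 in the highest, against 21.5, 19.6, 26.03, 37.3 and 15.6 TPM in Con (log2 change -1.26, SE 0.26, adjusted p = 9.09e-05), and Fndc5, the precursor of irisin, fell by 1.56 (SE 0.30). None of 22 skeletal muscle markers was called; their sum ran from 823 to 4250 TPM in CAC and from 1056 to 9591 TPM in Con.

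Genes named by rule outside the lists included Wfdc21 and Wfdc17, small secreted protease inhibitors, which rose by 3.73 (SE 0.44) and 2.88 (SE 0.32). Prtn3, a serine protease of granulocyte precursors, held 4.60 to 29.9 TPM in CAC, with a median of 23.2, and 0.487, 1.93, 0.502, 0.664 and 1.82 TPM in Con (log2 change 3.39, SE 0.30, adjusted p = 2.08e-12). Apod, a lipid-binding apolipoprotein, held 7.18, 6.97, 9.89, 11.1 and 6.46 TPM in the 5 Con libraries and 27.2 to 159.6 TPM in CAC, with a median of 83.6 (log2 change 3.21, SE 0.36, adjusted p = 9.24e-10) and Prg4, a lubricating glycoprotein, rose by 2.80 (SE 0.35). Every CAC library lay above Con for these 5. Tmem252 rose by 3.27 (SE 0.31). On the lower side, Retnla, a product of alternatively activated macrophages and fat, fell by 1.11 (SE 0.42) and Chn1 by 0.96 (SE 0.27). For Retnla leaving out CAC library 5 or Con library 1 ended the call (log2 change -1.04 to -0.95).

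The difference at 8 weeks was set against that at 6 weeks, in separate mice (5 CAC and 5 Con). A test of the change in the difference called 1 of 12581 genes (higher 0.00795%, lower 0%), and none after rescaling, with 1002 and 1206 genes at an unadjusted p under 0.05. The number called was 11 without CAC library 3 of 8 weeks, 0 to 2 without any other library, and 446 with library weights, which count variable libraries less. The 1 gene was Gm7334, annotated as a processed pseudogene, which can share reads with a parent gene, and its log2 difference was -0.49 at 6 weeks and 1.16 at 8 weeks (change 1.66, SE 0.32, adjusted p = 0.0360). For single genes, Itih4 differed by 7.08 and 8.09, Mt2 by 3.93 and 4.30, Fkbp5 by 2.92 and 4.21, Ucp1 by 0.15 and -0.82 and Cyp2b10 by 2.97 and 4.63 at 6 and 8 weeks. Perm1 stood at 0.25 at 6 weeks and -1.26 at 8 weeks (change -1.51, SE 0.38, adjusted p = 0.278).

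**Figure D5:**
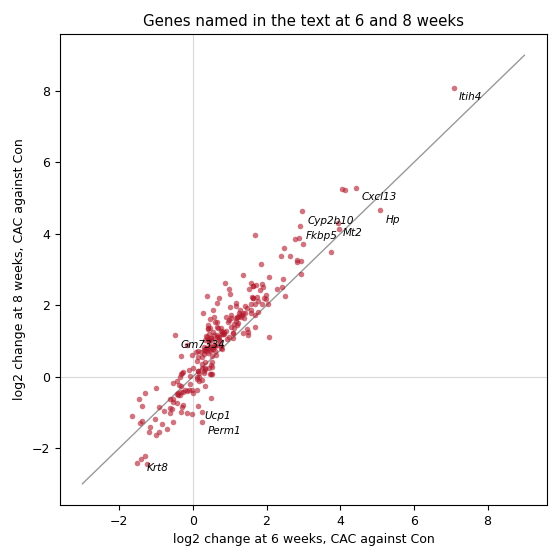
Log2 difference between CAC and Con at 6 weeks (horizontal axis) and at 8 weeks (vertical axis) for the genes named in the text, 1 point each, with the line of equality; the 2 weeks come from separate mice, and each difference is a contrast of the same limma fit. Itih4 lies at 7.08 and 8.09 and Ucp1 at 0.15 and -0.82; 1 gene of all 12581, Gm7334, was called for a change between the weeks.

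Against the 5 mice with non-cachectic melanoma cells at 8 weeks, 4698 genes were called higher in CAC (37.3%) and 249 lower (1.98%). These values share the CAC libraries with those above and are given beside them only. Of the acute phase genes 24 were higher and 1 lower, of complement genes 22 and 0, of glucocorticoid genes 16 and 1, and of thermogenic genes 3 and 5. Itih4 stood at 0.843 to 2.62 TPM in NCAC (log2 difference 8.07, SE 0.62), Mt2 at 73.2 to 146 TPM (4.01, SE 0.48), and Ucp1 at 4037 to 9369.8 TPM (-1.03, SE 0.25). Cyp2b10 stood at 0.936 to 96.5 TPM (4.16, SE 0.96), with the highest NCAC library far above the other 4. Adrb3 was not called against NCAC (-0.63, SE 0.33, adjusted p = 0.121), nor was Lcn2 (1.35, SE 0.72, adjusted p = 0.127) or Ighm (-0.85, SE 0.37, adjusted p = 0.0618).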

How the data were processed

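The authors deposited TPM for 47643 gene symbols in 62 libraries, and per the labels RNA from brown fat was made into stranded mRNA libraries and referred to mm10; the aligner, annotation and software are not given in the sources used here. TPM holds no read totals, so depth is unknown and no counting interval is given. Tested genes reached 1 TPM in 5 or more libraries; log2(TPM + 1) was fitted to 12 group means over all 62 libraries with limma 3.58.1 in R 4.3.3 (variance trend on), and p-values were adjusted by Benjamini-Hochberg over the 12581 genes. The fit was also run on simulated data, and the outcome is not reported here. Median-of-ratios rescaling, other normalizations and filters, and leaving out each library were tried as alternatives. The members, the 67 lists and the rules were chosen with earlier results of these data known. Named genes were the anchors of each list, up to 4 further members called on both scales at a mean of at least 5 TPM, and the 25 highest and 25 lowest of all; others, such as Cxcl9, Cmpk2, Il15, Mgll, Nr1d1, Nr4a1 and Il6st, were named after their values were seen. A symbol carried by more than 1 row bears a suffix in the file, so Itgam, Ltbp4 and Gbp6 were left out of the counts. Positions are from GENCODE vM21. Figures were drawn with matplotlib 3.10.9. Some members of the lists are not reported here by name.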

Additional observations from a re-analysis of the deposited data

Results flagged for a closer look

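Each gene named in the text was checked in the 7 CAC and the 5 Con libraries for a library far from the rest, by the gap to its nearest neighbour as a share of the range (Dixon's test at 95%). Of 500 groups 48 were picked out in this way. The test assumes a normal spread but was run on TPM without a log. Some of the genes were also named after their values were seen, so no rate of picks by chance is given. CAC library 1 was the highest of its group for Fgg at 3.15 against 0.525 TPM in the next library and Slc40a1 at 10.03 against 4.18 TPM. CAC library 2 was the highest of its group for Ccl8 at 249 against 117 TPM in the next library and Adrb1 at 20.5 against 11.1 TPM. CAC library 3 was the highest of its group for Rbp4 at 318 against 146 TPM in the next library, Cideb at 5.22 against 2.89 TPM, Car7 at 2.43 against 1.32 TPM, Ndn at 8.27 against 4.89 TPM, Fndc5 at 6.10 against 3.04 TPM and Chn1 at 10.7 against 5.16 TPM. CAC library 3 was the lowest of its group for Itih4 at 41.9 against 709 TPM in the next library, Stat3 at 13.01 against 37.6 TPM, Gsta3 at 14.8 against 32.9 TPM, Msrb1 at 101 against 144 TPM, Smad3 at 4.87 against 16.7 TPM, Prtn3 at 4.60 against 19.2 TPM and Prg4 at 1.25 against 14.9 TPM. CAC library 4 was the highest of its group for Npr3 at 27.7 against 15.8 TPM in the next library. CAC library 5 was the highest of its group for Stat5a at 23.2 against 14.2 TPM in the next library, Slc39a10 at 8.96 against 4.54 TPM, Arntl at 14.9 against 1.99 TPM, Clock at 11.9 against 7.63 TPM, Ppard at 28.7 against 16.6 TPM, Acaca at 811 against 505 TPM, Slc2a4 at 384 against 253 TPM and Hk2 at 331 against 196 TPM. CAC library 6 was the highest of its group for Igkc at 8.89 against 2.29 TPM in the next library and Krt18 at 13.8 against 5.37 TPM.

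Con library 1 was the highest of its group for C6 at 0.370 against 0.173 TPM in the next library, Nlrc5 at 3.28 against 2.05 TPM, H2-Aa at 53.8 against 29.6 TPM, Cd74 at 126 against 73.6 TPM and Ctss at 15.1 against 9.02 TPM. Con library 1 was the lowest of its group for mt-Nd6 at 864 against 1381 TPM in the next library. Con library 2 was the highest of its group for Serpina3k at 1.49 against 0.479 TPM in the next library, Nr3c1 at 29.9 against 25.5 TPM, Arntl at 2.89 against 1.55 TPM and Clock at 7.71 against 6.34 TPM. Con library 3 was the highest of its group for Myc at 2.00 against 1.20 TPM in the next library. Con library 4 was the highest of its group for Saa2 at 0.0673 against 0 TPM in the next library, Rarres2 at 22.6 against 17.7 TPM, Fdft1 at 73.2 against 44.2 TPM and Wfdc21 at 22.4 against 9.57 TPM. Con library 5 was the highest of its group for Socs2 at 3.88 against 1.22 TPM in the next library, Nfil3 at 22.8 against 7.07 TPM, Mpzl2 at 72.7 against 38.8 TPM and Fmo2 at 15.4 against 8.04 TPM. Con library 5 was the lowest of its group for Itih5 at 18.2 against 29.6 TPM in the next library.

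The difference between CAC and Con changed from 6 to 8 weeks for 1 gene by the limma test of that change, Gm7334, at -0.49 and 1.16 (change 1.66, SE 0.32, adjusted p = 0.0360). Its adjusted p after rescaling was 0.0920.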

How the results depend on the processing

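Read totals are not in the deposited values, so low genes cannot be bounded, and the strain and the hour of dissection were not tested. Of 12581 genes, 6797 were called between CAC and Con. The number was 3314 after median-of-ratios rescaling (1700 higher, 1614 lower), 3496 after quantile normalization (1564 and 1932) and 3616 without mitochondrially encoded genes (1428 and 2188). A fit of the groups compared alone, which takes the spread from these libraries only, called 5503 genes (5241 higher, 262 lower). The 248 lower calls became 165 with a filter at 5 TPM, which tests fewer genes, and 485 with library weights. Against NCAC the 4947 calls became 3075 after rescaling (1626 higher, 1449 lower), 3154 after quantile normalization (1423 and 1731), 1460 higher and 1852 lower without mitochondrially encoded genes, and 2736 (2560 higher) in a fit of the groups compared alone; the 249 lower calls became 160 at the 5 TPM filter, 414 with library weights and 152 with the replicate block, and the cause was not tested. Leaving out 1 library at a time gave 5596 to 7323 calls against Con (5368 to 7026 higher, 182 to 314 lower) and 3933 to 5859 against NCAC (3720 to 5530 higher, 190 to 329 lower). The single call for a change from 6 to 8 weeks became 0 with no filter, after rescaling, after quantile normalization, in the groups compared alone and with the replicate block, 446 with library weights (408 higher, 38 lower), and 0 to 11 without 1 library (0 to 10 higher, 0 to 1 lower). The mitochondrial share stayed lower in CAC at -12.8 to -10.9 percentage points without 1 library and at -0.71 as a log2 ratio. Libraries share replicate numbers between groups, but the numbers do not pair them: deviations of same-numbered libraries correlated at -0.29 to 0.10 and none matched its own number best, and the replicate block gave 5811 calls against Con. Of 250 genes named in the text, 5 turned sign where 1 of the values was called: Cd59a (-0.24) and Slc2a4 (-0.31) without mitochondrially encoded genes, Fth1 (-0.039) and Cidea (-0.0016) after quantile normalization, and Pparg at -0.11 after rescaling, -0.12 after quantile normalization and -0.15 without mitochondrially encoded genes. With the sign kept, 17 named genes lost their call and 7 gained a call without mitochondrially encoded genes. The counts were 8 and 7 after rescaling and also after quantile normalization. They were 9 and 2 with the replicate block, and 7 and 4 in the groups compared alone.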

Other observations

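CAC library 5 differed from the other 6 in clock and lipid synthesis genes that were not called between the groups. It held 14.9 TPM of Arntl and 11.9 TPM of Clock, the highest of the 12 libraries, with 4.41 TPM of Nr1d1 and 7.84 TPM of Dbp, the lowest of the 12. Fasn stood at 5756 TPM there against 2550.2 to 4324 TPM in the other CAC libraries, Acaca at 811 against 289.7 to 505 TPM, Hk2 at 331 against 95.7 to 196 TPM, and the insulin-regulated transporter Slc2a4 at 384 against 210.1 to 253 TPM.

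In CAC library 3 the acute phase genes differed among themselves. Itih4 stood at 41.9 TPM and Hp at 391 TPM, above every Con library, while Saa3 at 0.239 and Lcn2 at 1.11 TPM lay within Con.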
